A study of Mus musculus with 2 samples.

Results

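The genes described here encode the route of glucose through the cell: sugar uptake and phosphorylation, glycolysis, the handling of pyruvate and lactate, and the pentose phosphate pathway. They were taken by gene name from a list of 36 names, of which 35 had a row in the deposited table of 12707 genes. Aldoa had 2 rows with different Ensembl identifiers, so 36 rows are described. Aldoc is not among them and enters only the counts of promoter windows. The list and the roles within it were not chosen from a difference between the libraries, although earlier results of these data were known when it was drawn up.

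RNA was sequenced from live CD45-negative cells sorted from Py8119 tumours, with 1 library from Mtdh knock out (KO) host mice and 1 library from Mtdh wild type (WT) host mice. Py8119 is a mouse mammary tumour line of mesenchymal character derived from an MMTV-PyMT tumour. The injected tumour cells are labelled wild type for Mtdh in both libraries, so the labels differ in host genotype alone, and the comparison asks what loss of metadherin in the host goes with in the tumour cells. How many tumours or mice stand behind a library is not stated, nor are age, strain and day of harvest. Host cells that lack CD45, such as fibroblasts, pericytes and endothelial cells, pass the gate together with the tumour cells. There was no replicate, so no p-value or SD could be given, and every difference describes this pair of libraries and not the genotypes.

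Glucose enters most cells through facilitative transporters and is trapped by hexokinases as glucose 6-phosphate. Glycolysis splits it into pyruvate, which is either reduced to lactate and exported with a proton or passed to the mitochondrial pyruvate dehydrogenase complex. The pentose phosphate pathway draws on the same glucose 6-phosphate to make NADPH and ribose 5-phosphate. Many tumour cells run glycolysis at a high rate even in oxygen, and hypoxia-inducible factor (HIF) and MYC are known activators of its genes.

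The deposited values are log2(FPKM + 1), where FPKM is fragments per kilobase of the gene's genomic span, scaled to library size. Read counts could be recovered from them, 23381863 reads for the library from KO hosts (KO-host library below) and 26069381 for that from WT hosts (WT-host library). Levels within a library are given below as RPM (reads of a gene per 1000000 recovered reads). A ratio is RPM in the KO host over RPM in the WT host, with a 95% exact binomial interval that covers counting error only. Without molecular identifiers, PCR copies of a molecule count more than once, and the interval does not cover that. Mtdh itself, in which the injected cells are wild type, was at 989 RPM in the KO-host library and 1088.5 RPM in the WT-host library. In bulk RNA, fewer cells of a type and less RNA per cell cannot be told apart.

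The glucose entry genes Hk2 and Slc2a1 were higher in the KO-host library, while most enzymes of glycolysis lay close to a ratio of 1 on either side. The first size rule asked for a difference of 1 in log2(FPKM + 1) among genes whose mean was at least 1, which 23 rows reached. By it 1 row, Hk2, was higher in the KO-host library and 0 were lower. Of all 6057 genes that passed the same filter, 2.31% were higher and 2.64% were lower by this rule. The median difference in log2(FPKM + 1) was -0.09 over the 23 rows and -0.03 over the 6057 genes. All 36 rows together took 0.789% of reads in the KO-host library and 0.740% in the WT-host library. Glucose entry alone took 0.206% (KO host) and 0.120% (WT host). Of the other roles, only the pentose phosphate genes had a summed ratio above 1.

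A rule on RPM does not shrink with the length of the gene, so it was applied as well, to genes with 100 or more reads over both libraries. Of 35 rows that met this minimum, 3 were 2-fold or more higher in the KO-host library (Hk2, Slc16a3 and Pfkfb4) and 0 were 2-fold or more lower. Among all 10814 such genes, 8.91% were 2-fold higher and 12.0% were 2-fold lower. A 1.5-fold limit was passed by 7 rows on the higher side and 1 on the lower side, against 16.1% and 21.4% of all genes. The median ratio was 1.02 over the 35 rows and 0.957 over the 10814 genes.

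**Figure D1:**
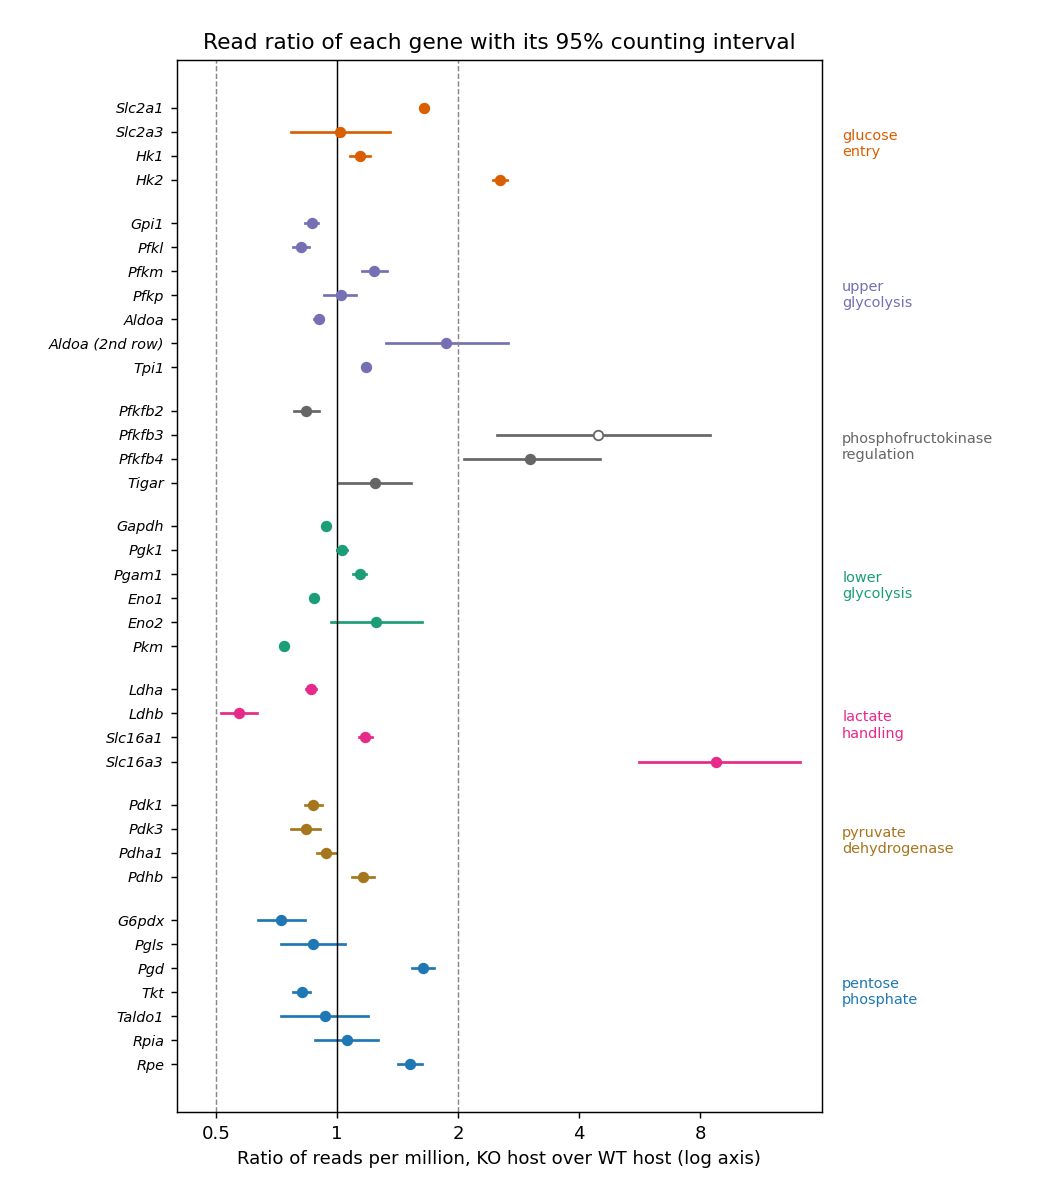
Ratio of RPM, KO host over WT host, for each gene by role, on a log axis; points are single ratios and lines are 95% counting intervals. The open point marks Pfkfb3, which had under 100 reads and lies at 4.46; Hk2, Pfkfb4 and Slc16a3 lie past the dashed 2-fold line, while every lower glycolysis gene lies between 0.741 and 1.25.

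How often a gene passes these limits depended strongly on its number of reads. With 10000 or more reads over both libraries, 1.93% of 1137 genes were 2-fold higher and 0.704% were 2-fold lower. From 1000 to 10000 reads the shares were 3.03% and 4.58% of 5476 genes. From 300 to 1000 reads they were 12.9% and 20.1% of 2602 genes, with 23.1% and 32.3% at 1.5-fold, and no member passed there. From 100 to 300 reads they were 27.5% and 32.5% of 1599 genes (34.3% and 40.6% at 1.5-fold), and 18.01% of those genes had 5 or fewer reads in 1 library. Of the member rows, 12 had 10000 or more reads, 13 had 1000 to 10000, 4 had 300 to 1000, 6 had 100 to 300, and Pfkfb3 had fewer. Of the 3 rows past 2-fold, Hk2 stood in the deepest class and Slc16a3 and Pfkfb4 stood in the shallowest.

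**Figure D2:**
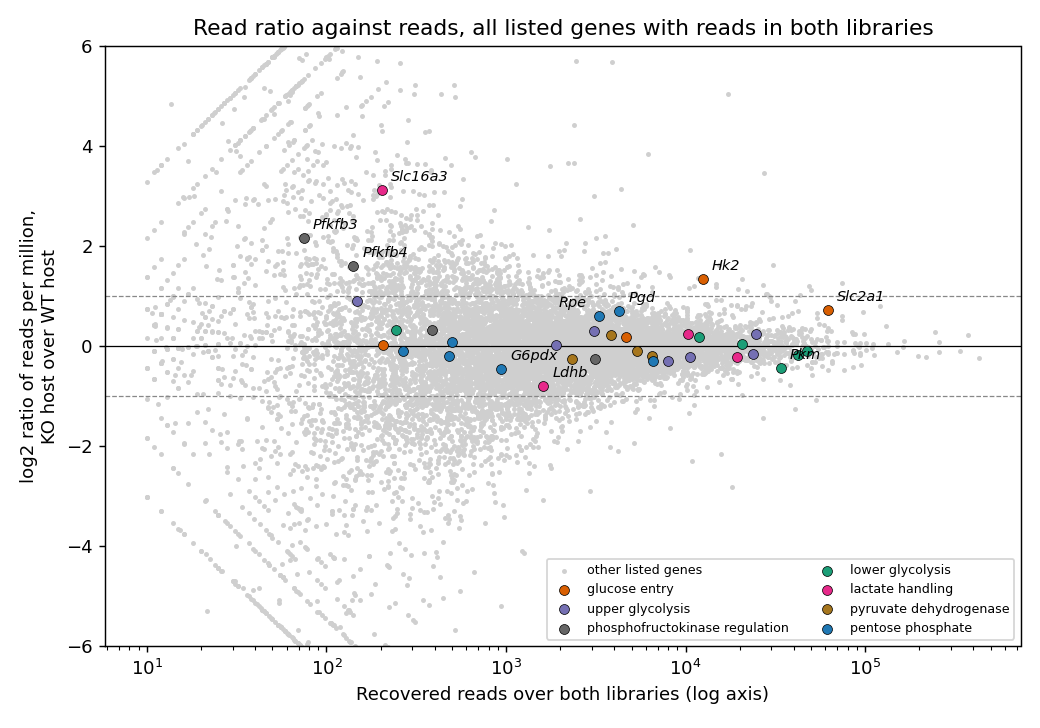
log2 ratio of RPM, KO host over WT host, against recovered reads over both libraries (log axis), with members coloured by role and other genes with reads in both libraries in grey; genes past 6 on either side lie outside the axis, and dashed lines mark 2-fold. The grey cloud widens towards few reads, where Slc16a3, Pfkfb3 and Pfkfb4 lie, and narrows above 10000 reads, where Hk2 and Slc2a1 lie at its upper edge.

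Glucose entry had the summed ratio farthest from 1 of the 7 roles. Its 4 genes summed to 2057 RPM in the KO-host library (95% Poisson interval 2039 to 2076) and 1201 RPM in the WT-host library (1188 to 1214), a ratio of 1.71. All 4 ratios were above 1, and Slc2a1 supplied most of the sum. Hk2 (ENSMUSG00000000628, chromosome 6, 82702006 to 82751436, minus strand, build mm39 as named in the submitters' notes) is the inducible hexokinase that binds mitochondria and is raised in many tumours. It had 8644 reads (370 RPM) in the KO-host library and 3793 reads (145 RPM) in the WT-host library, a ratio of 2.54 (2.45 to 2.64). Slc2a1 (ENSMUSG00000028645, chromosome 4, 118965908 to 118995181, plus strand) encodes GLUT1, the basal glucose transporter of most dividing cells. It had 37012 reads (1583 RPM) in the KO-host library and 25115 reads (963 RPM) in the WT-host library, a ratio of 1.64 (1.62 to 1.67). Among the 1137 genes with 10000 or more reads, 5.72% were 1.5-fold or more higher.

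The other transporter and hexokinase differed less. Hk1, the housekeeping hexokinase, was at 100.3 RPM in the KO-host library and 88.0 RPM in the WT-host library, a ratio of 1.14 (1.08 to 1.21). Slc2a3, which encodes the high-affinity transporter GLUT3, was near the bottom of the range with 99 reads (KO host) and 108 (WT host) and a ratio of 1.02 (0.770 to 1.36). Hk2 made up 78.7% of hexokinase reads in the KO-host library (exact binomial 95% interval 77.9 to 79.4%) and 62.3% in the WT-host library (61.1 to 63.5%). Counted per kilobase of transcript, the Hk2 share was 74.1% in the KO-host library and 56.2% in the WT-host library. Slc2a1 held 99.7% (KO host) and 99.6% (WT host) of the reads of the pair of transporters, so GLUT3 contributed little in either library.

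HIF binds the core ACGTG or GCGTG, and the promoters of Hk2 and Slc2a1 are shown here because these were the deepest genes past 1.5-fold. Each window runs from 250 bases before to 50 bases after the RefSeq start, in build GRCm38.p6 (chr6:82774405-82774704, minus strand, for Hk2 and chr4:119108495-119108794, plus strand, for Slc2a1), and capitals mark either core on either strand.
Hk2: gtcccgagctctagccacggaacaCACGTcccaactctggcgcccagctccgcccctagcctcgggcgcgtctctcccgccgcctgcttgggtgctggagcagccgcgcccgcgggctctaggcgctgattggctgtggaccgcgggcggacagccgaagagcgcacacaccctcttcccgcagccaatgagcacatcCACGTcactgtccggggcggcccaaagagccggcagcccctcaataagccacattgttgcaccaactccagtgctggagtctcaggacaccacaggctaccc
Slc2a1: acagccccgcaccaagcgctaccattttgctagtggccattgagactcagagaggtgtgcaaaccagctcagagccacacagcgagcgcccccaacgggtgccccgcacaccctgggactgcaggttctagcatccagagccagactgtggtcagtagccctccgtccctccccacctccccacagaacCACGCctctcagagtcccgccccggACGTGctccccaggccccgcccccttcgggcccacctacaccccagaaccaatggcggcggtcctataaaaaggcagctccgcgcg
Each window holds 2 cores, both on the reverse strand in Hk2 and 1 on each strand in Slc2a1.

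The same core was common in the whole set, including genes with ratios near 1. Of 51 promoter windows listed for 35 of the 36 names, 40 hold ACGTG or GCGTG (78.4%), with Aldoc included and no window listed for Slc2a3. The share was 60.1% of the 12788 windows whose gene is in the deposited table and 43.8% of all 32851 windows. The E-box CACGTG, a MYC motif that contains ACGTG, was in 5 of the 51 windows (9.80%) and in 9.56% of the windows of genes in the deposited table. The windows of Hk2 and Slc2a1 have no E-box. By role, a HIF core was in 7 of 9 windows of lower glycolysis and in 6 of 8 windows of the pentose phosphate genes. A match to these letters is a description and not a binding site.

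Upper glycolysis turns glucose 6-phosphate into triose phosphates, and its members split around a ratio of 1. They summed to 1450 RPM in the KO-host library (1435 to 1466) and 1465 RPM in the WT-host library (1451 to 1480). Tpi1, which interconverts the triose phosphates, had 12678 reads (KO host) and 11970 (WT host) and a ratio of 1.18 (1.15 to 1.21). Aldoa, the main aldolase, was at 454 RPM in the KO-host library and 504 RPM in the WT-host library, a ratio of 0.901 (0.878 to 0.925). Gpi1, which makes fructose 6-phosphate, had a ratio of 0.865 (0.832 to 0.899). On the log2 scale these ratios are 0.24 for Tpi1, -0.15 for Aldoa and -0.21 for Gpi1, beside quartiles of -0.18 and 0.19 over all genes with 10000 or more reads.

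The phosphofructokinase isozymes, which catalyse the committed step, differed in direction. Pfkl, the liver-type form and the most abundant of them, had 3363 reads in the KO-host library and 4613 in the WT-host library, a ratio of 0.813 (0.777 to 0.850). Pfkm, the muscle-type form, had 1625 reads (KO host) and 1465 (WT host), a ratio of 1.24 (1.15 to 1.33). Pfkp, the platelet-type form, had 902 reads (KO host) and 986 (WT host), a ratio of 1.02 (0.931 to 1.12). The Pfkl share of phosphofructokinase reads was thus 57.1% in the KO-host library and 65.3% in the WT-host library, and the Pfkm share 27.6% (KO host) and 20.7% (WT host). Skeletal muscle also makes Pfkm. Of 14 muscle markers Eno3 and Tnni2 alone had a row, with 1327 reads (KO host) and 1499 (WT host) for Eno3 and with 21 reads in the KO-host library for Tnni2, a gene listed at 0 in the other. Their part in the Pfkm value was not tested.

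Enzymes that set the level of fructose 2,6-bisphosphate, the allosteric activator of phosphofructokinase, were among the lowest members per kilobase of transcript apart from Pfkfb2, which ranked 24 of 36 in both libraries. Pfkfb2, a bifunctional kinase and phosphatase, was at 57.3 RPM in the KO-host library and 68.3 RPM in the WT-host library, a ratio of 0.839 (0.781 to 0.902). Pfkfb4 had 103 reads (KO host) and 38 (WT host), a ratio of 3.02 (2.06 to 4.51). Pfkfb3, the form with the highest kinase activity and a known HIF target, had 60 reads (KO host) and 15 (WT host), a ratio of 4.46 (2.50 to 8.46), on fewer reads than the minimum for the size rules. Tigar, a phosphatase that lowers this metabolite and is a p53 target in human cells, had 203 reads (KO host) and 182 (WT host), a ratio of 1.24 (1.01 to 1.53). Of genes with 100 to 300 reads, the depth class of Pfkfb4, 27.5% were 2-fold higher, and Pfkfb3 lies below that class.

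Lower glycolysis, from glyceraldehyde 3-phosphate to pyruvate, took the most reads of the 7 roles and summed to slightly less in the KO-host library. It summed to 2992 RPM in the KO-host library (2970 to 3015) and 3321 RPM in the WT-host library (3299 to 3343), a ratio of 0.901 (0.892 to 0.910). Gapdh, which makes the first NADH of the pathway, had 21688 reads (KO host) and 25720 (WT host) and a ratio of 0.940 (0.923 to 0.957). Eno1, the main enolase, had 18693 reads (KO host) and 23734 (WT host) and a ratio of 0.878 (0.861 to 0.895). Pkm, the pyruvate kinase of tumour and muscle cells, had the lowest ratio of the role, with 13558 reads in the KO-host library and 20414 in the WT-host library, 0.741 (0.725 to 0.757). Its gene-level value does not separate the M1 and M2 splice forms.

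The remaining 3 members of lower glycolysis had ratios above 1. Pgk1, which makes the first ATP of the pathway, was at 425 RPM in the KO-host library and 413 RPM in the WT-host library, a ratio of 1.03 (1.002 to 1.06). Pgam1, which moves the phosphate of 3-phosphoglycerate, was at 255 RPM (KO host) and 224 (WT host), a ratio of 1.14 (1.10 to 1.18). Eno2, the neuronal enolase, had only 129 reads (KO host) and 115 (WT host), and its interval of 0.965 to 1.62 includes 1. Of the 6 members, 0 passed a 1.5-fold limit; 5 of them have 10000 or more reads, where 5.72% of all genes were 1.5-fold higher and 2.64% lower.

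**Figure D3:**
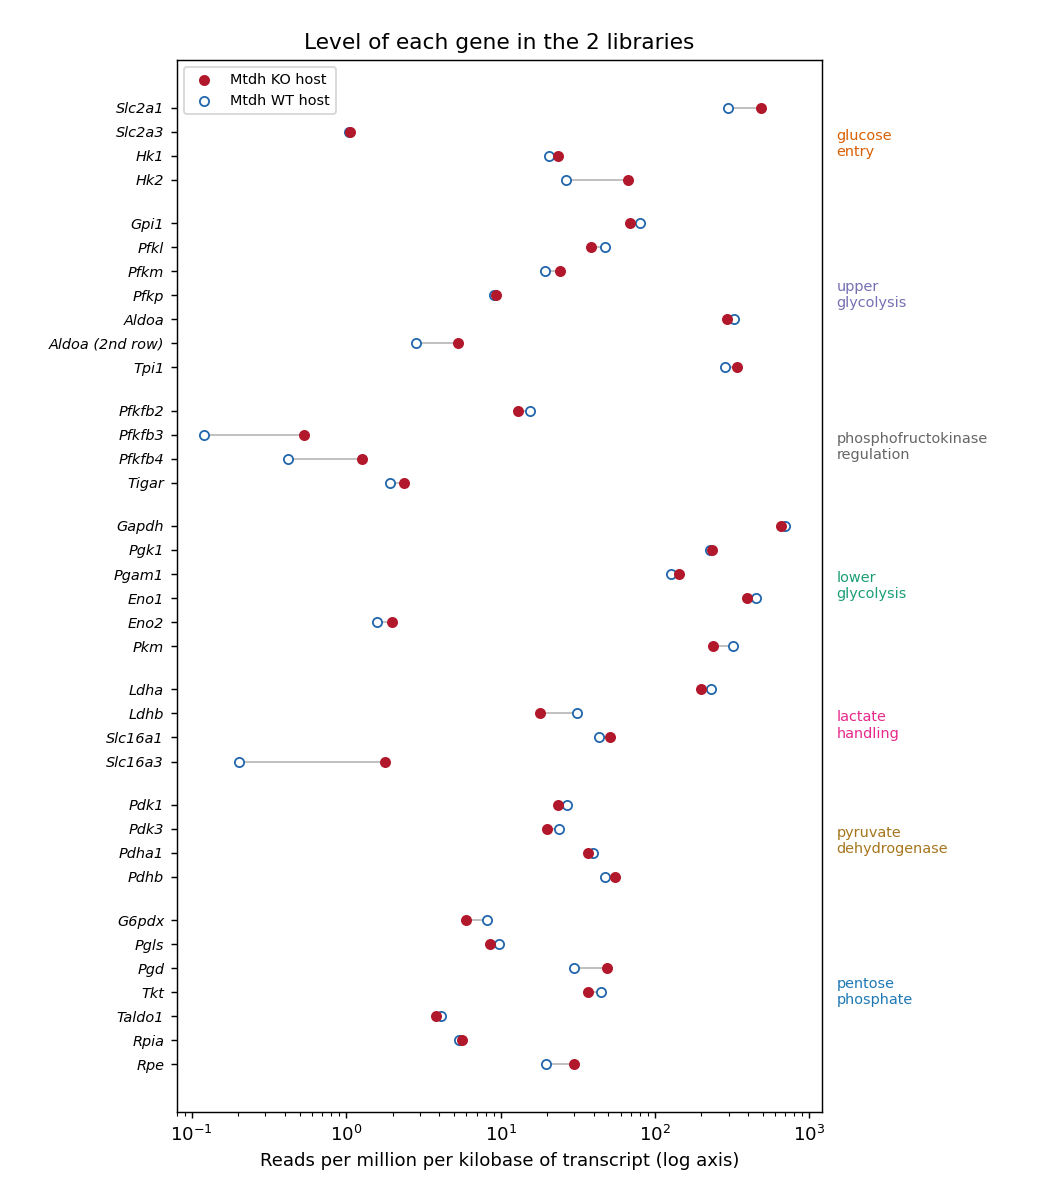
Level of each gene as RPM per kilobase of its longest coding transcript (log axis), with filled points for the KO-host library and open points for the WT-host library, by role. Gapdh is at the top in both libraries, Slc2a1 lies among the enzymes of lower glycolysis, and the widest gaps are those of low genes (Slc16a3, Pfkfb3, Pfkfb4) and of Hk2.

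On a scale per kilobase of transcript, Gapdh led in both libraries and Hk2 and Slc2a1 stood higher in the KO-host library. Gapdh was at 653 RPM per kilobase in the KO-host library and 695 in the WT-host library. Slc2a1 was next in the KO-host library at 486, against 296 in the WT-host library, where Eno1, Aldoa and Pkm stood above it at 449, 325 and 322. Hk2 ranked 11 of 36 in the KO-host library and 19 of 36 in the WT-host library. Ldhb ranked 23 in the KO-host library and 16 in the WT-host library. Pfkfb3 was the lowest in both, at 0.535 (KO host) and 0.120 (WT host). With no replicates, it cannot be said which neighbours in this order differ.

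Genes for lactate handling differed in both directions. Ldha, whose subunit favours the reduction of pyruvate to lactate, had 8387 reads (359 RPM) in the KO-host library and 10871 reads (417 RPM) in the WT-host library, a ratio of 0.860 (0.836 to 0.885). Ldhb, whose subunit favours the reverse reaction, had 545 reads in the KO-host library and 1063 in the WT-host library, a ratio of 0.572 (0.515 to 0.634), the lowest of all 36 rows. Among genes with 1000 to 10000 reads, 14.4% were 1.5-fold or more lower. The Ldha share of the pair was 93.9% (93.4 to 94.4%) in the KO-host library and 91.1% (90.6 to 91.6%) in the WT-host library.

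The transporters that carry lactate with a proton had unequal levels. Slc16a1, which encodes MCT1 and can take up or release lactate, had 5285 reads (KO host) and 5005 (WT host) and a ratio of 1.18 (1.13 to 1.22). Slc16a3 encodes MCT4, the low-affinity exporter of glycolytic cells and a known HIF target. It had 180 reads in the KO-host library and 23 in the WT-host library, a ratio of 8.73 (5.64 to 14.1), the highest of all 36 rows. On the deposited scale this was only 0.70 in the KO-host library and 0.10 in the WT-host library, below the expression filter. Slc16a3 accounted for 3.29% of the pair's reads in the KO-host library and 0.457% in the WT-host library. Its span overlaps the opposite-strand gene Csnk1d by 1879 bases, and how strand was handled is not stated, so reads of the 2 genes may be mixed; Csnk1d had 5666 reads (KO host) and 5156 (WT host).

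The promoters of the lactate genes at the ends of the range are shown for the same HIF cores, in capitals, on either strand (GRCm38.p6, chr11:120948817-120949116, plus strand, for Slc16a3 and chr6:142507908-142508207, minus strand, for Ldhb).
Slc16a3: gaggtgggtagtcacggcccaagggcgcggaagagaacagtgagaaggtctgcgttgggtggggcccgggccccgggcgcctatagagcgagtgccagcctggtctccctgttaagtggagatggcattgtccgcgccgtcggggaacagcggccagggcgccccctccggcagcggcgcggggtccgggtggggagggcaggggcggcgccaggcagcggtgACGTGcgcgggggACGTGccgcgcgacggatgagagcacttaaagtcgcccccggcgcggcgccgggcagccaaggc
Ldhb: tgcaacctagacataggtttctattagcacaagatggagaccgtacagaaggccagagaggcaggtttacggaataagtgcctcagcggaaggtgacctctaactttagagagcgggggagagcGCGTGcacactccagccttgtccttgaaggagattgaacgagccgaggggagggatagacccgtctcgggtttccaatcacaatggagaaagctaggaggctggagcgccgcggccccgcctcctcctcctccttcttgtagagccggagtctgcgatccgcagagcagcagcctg
The Slc16a3 window holds 2 copies of ACGTG on the forward strand and the Ldhb window holds 1 GCGTG. All 5 windows of the lactate genes hold 1 or more cores.

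**Figure D4:**
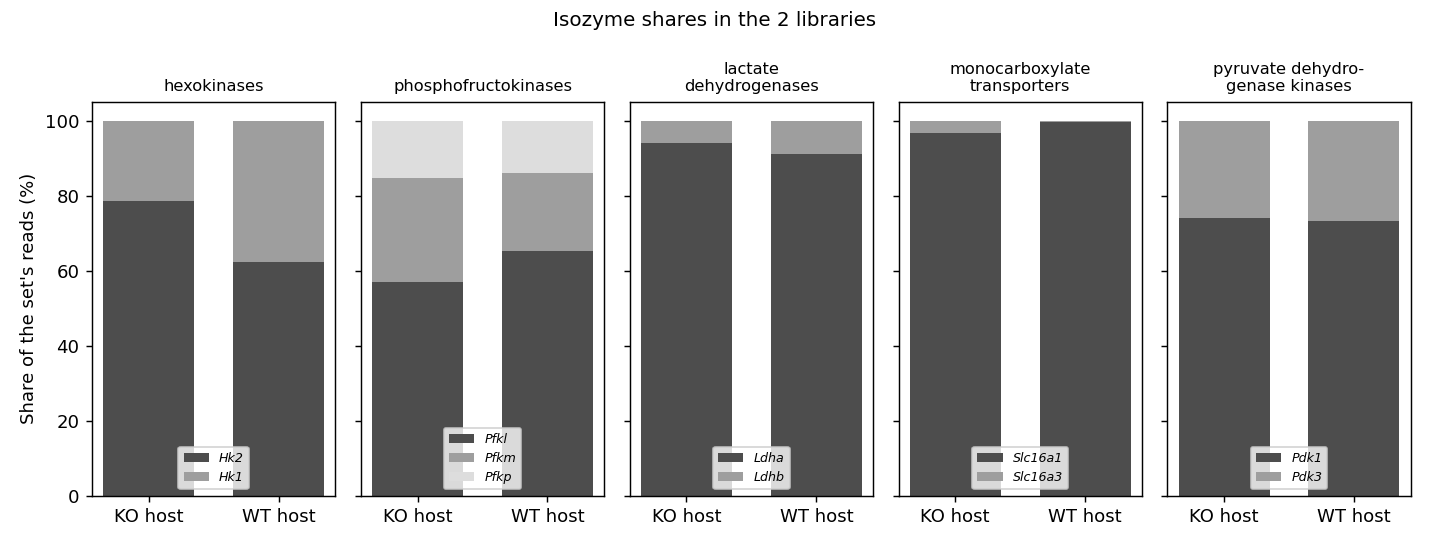
Share of reads of each isozyme within its set, in percent and not divided by transcript length, for the KO-host library (left bar) and the WT-host library (right bar). In that order the Hk2 share is 78.7% and 62.3%, the Pfkl share 57.1% and 65.3%, and the Pdk1 share 74.2% and 73.3%.

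The pyruvate dehydrogenase genes, which admit pyruvate to the mitochondrial citrate cycle, all lay near a ratio of 1. Pdk1, a kinase that switches the complex off and is a known HIF target, was at 122 RPM in the KO-host library and 139 RPM in the WT-host library, a ratio of 0.873 (0.831 to 0.917). Pdk3, another such kinase, had a ratio of 0.836 (0.769 to 0.908). The subunit genes of the E1 enzyme were on either side of 1, with Pdha1 at 0.941 (0.891 to 0.993) and Pdhb at 1.16 (1.09 to 1.24). Pdk1 took 74.2% of the reads of the 2 kinases in the KO-host library (72.7 to 75.5%) and 73.3% in the WT-host library (72.1 to 74.5%), intervals that overlap. Counted per kilobase of transcript, the Pdk1 share was 53.9% (KO host) and 52.8% (WT host).

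Of the 7 pentose phosphate genes, 3 had ratios above 1 and 4 below 1. Pgd and Rpe had the highest ratios, and G6pdx, which starts the pathway, had the lowest. The role summed to 348 RPM in the KO-host library (341 to 356) and 312 RPM in the WT-host library (305 to 319), a ratio of 1.12. In the oxidative branch, Pgd, which makes NADPH and ribulose 5-phosphate, had 2537 reads (KO host) and 1730 (WT host), 109 RPM in the KO-host library and 66.3 RPM in the WT-host library, a ratio of 1.64 (1.54 to 1.74). G6pdx, the X-linked dehydrogenase that commits glucose 6-phosphate to the pathway, had 370 reads (KO host) and 567 (WT host) and a ratio of 0.728 (0.637 to 0.831). Its whole span of 19712 bases lies within that of the opposite-strand gene Ikbkg, which had 1325 reads (KO host) and 1219 (WT host). Pgls, the lactonase between them, had 211 reads (KO host) and 270 (WT host) and a ratio of 0.871 (0.724 to 1.05).

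In the non-oxidative branch, Rpe, the epimerase that makes xylulose 5-phosphate, had 1887 reads in the KO-host library and 1386 in the WT-host library, a ratio of 1.52 (1.42 to 1.63). Among genes with 1000 to 10000 reads, 9.61% were 1.5-fold or more higher, Pgd and Rpe included. Tkt, the transketolase that links the pathway back to glycolysis, had 2773 reads (KO host) and 3782 (WT host) and a ratio of 0.817 (0.778 to 0.859). Rpia, the ribose 5-phosphate isomerase, and Taldo1, the transaldolase, had ratios of 1.06 (0.884 to 1.27) and 0.932 (0.727 to 1.19), with 1 inside both intervals. The median of this role depended on which members were counted: it was 0.18 in log2(FPKM + 1) over the 4 that passed the expression filter, and -0.10 as a log2 RPM ratio over all 7.

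Among the roles, glucose entry alone had all its ratios above 1, and no role had all of them below 1. The summed ratio was 1.71 (1.69 to 1.74) for glucose entry, 0.901 (0.892 to 0.910) for lower glycolysis, 0.946 (0.926 to 0.968) for lactate handling and 1.12 (1.08 to 1.15) for the pentose phosphate genes. The median log2(FPKM + 1) difference over members past the expression filter was 0.90 for 2 members of glucose entry, -0.09 for 5 of lower glycolysis, -0.21 for 3 of lactate handling and 0.18 for 4 of the pentose phosphate genes. Over members with 100 or more reads, the median log2 RPM ratio was -0.0231 for lower glycolysis, 0.0091 for lactate handling and -0.10 for the pentose phosphate genes. With trimmed mean scaling these medians were 0.0297, 0.0619 and -0.0493, in the same order. The differences between roles were not tested.

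Several members are neighbours in the genome. Chromosome 6 carries 8 of the 36 rows, chromosome 7 carries 5 and chromosome X carries 4. Eno2, Tpi1 and Gapdh stand on the minus strand of chromosome 6 within 406 kb, from 124737016 to 125143431, with ratios of 1.25, 1.18 and 0.940. The X-linked members G6pdx, Pgk1, Pdha1 and Pdk3 had ratios of 0.728, 1.03, 0.941 and 0.836.

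Other glycolytic isozymes and sugar transporters, 31 names with 17 rows, were mostly low. Of 7 past the expression filter, 0 were higher and 2 were lower by 1 or more, against 2.31% and 2.64% of all genes. Of 10 with 100 reads, 1 was 2-fold higher and 3 were lower, against 8.91% and 12.0%. The pair past the first rule was Mpi, which interconverts fructose and mannose 6-phosphate, and Pmm1, which makes mannose 1-phosphate for glycosylation. Mpi had 118 reads in the KO-host library and 643 in the WT-host library, a ratio of 0.205 (0.167 to 0.249), and Pmm1 had 182 reads (KO host) and 831 (WT host), a ratio of 0.244 (0.207 to 0.287). Adpgk, an ADP-dependent glucokinase, had 1679 reads (KO host) and 918 (WT host), a ratio of 2.04 (1.88 to 2.21). Slc2a9, a urate and sugar transporter, had 24 reads (KO host) and 89 (WT host). The muscle enolase Eno3 and the phosphatase Pgp, which had the highest mean values, had ratios of 0.987 and 1.16.

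Further genes of lactate and pyruvate handling gave few large differences on many reads. Of 15 further monocarboxylate names, 7 had 100 reads or more, with 3 higher by 2-fold and 0 lower, against 8.91% and 12.0% of all genes. Of the 3, Ldhd and Slc5a8 lie in the class of 100 to 300 reads, where 27.5% of genes were 2-fold higher. Slc16a10, an aromatic amino acid transporter, had 1087 reads (KO host) and 421 (WT host), a ratio of 2.88 (2.57 to 3.23), Ldhd, a mitochondrial D-lactate dehydrogenase, had 155 reads (KO host) and 84.8 (WT host), and Slc5a8, a sodium-coupled monocarboxylate transporter, had 211 reads (KO host) and 1 (WT host). Bsg, the chaperone that carries MCT1 and MCT4 to the membrane, was at 909 reads (KO host) and 1212 (WT host), a ratio of 0.836 (0.766 to 0.912), and Slc16a4 had a ratio of 0.561. Of 10 further genes of the pyruvate dehydrogenase complex and pyruvate entry, 1 was 2-fold higher and 1 was lower, against the same 8.91% and 12.0%. Mpc1, a subunit of the mitochondrial pyruvate carrier, had 78 reads (KO host) and 321 (WT host), a ratio of 0.271 (0.209 to 0.348), and Pdhx, the E3-binding subunit, had 256 reads (KO host) and 129 (WT host), a ratio of 2.21 (1.78 to 2.76). The phosphatases Pdp1 and Pdp2, which reactivate the complex, had ratios of 0.892 and 1.08.

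Further genes of pentose, ribose and NADPH metabolism, 17 rows, gave 1 higher and 3 lower by 2-fold, against 8.91% and 12.0% of all genes. Of 9 past the expression filter, 1 was lower by 1 or more and 0 were higher, against 2.64% and 2.31%. That gene was Idh2, the mitochondrial NADP-linked isocitrate dehydrogenase, with 1468 reads in the KO-host library and 3890 in the WT-host library, a ratio of 0.421 (0.396 to 0.447). Prps1, which makes the ribose donor of nucleotides, had 593 reads (KO host) and 288 (WT host) and a ratio of 2.29 (1.98 to 2.64). Shpk, which phosphorylates sedoheptulose, had 112 reads (KO host) and 366 (WT host). Nnt, which makes mitochondrial NADPH, has 2 rows, of which 1 had 1030 reads (KO host) and 1158 (WT host), a ratio of 0.992, and the other 63.1 reads (KO host) and 440 (WT host), a ratio of 0.160. Nadk, the NAD kinase with the highest mean of the list, had a ratio of 1.15.

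Regulators of these genes differed in both directions. Of 17 that passed the expression filter, 1 was lower and 0 were higher by 1 or more, against 2.64% and 2.31% of all genes. That gene was Txnip, which lowers glucose uptake and is itself induced by glucose phosphates, with 593 reads in the KO-host library and 1599 in the WT-host library, a ratio of 0.413 (0.376 to 0.455). On the RPM scale, 4 of 24 were 2-fold lower, Txnip included, and 1 was higher, against 12.0% and 8.91%. Egln3, a prolyl hydroxylase that marks HIF for destruction, had 235 reads (KO host) and 1064 (WT host). Keap1, the inhibitor of NRF2, had 261 reads (KO host) and 735 (WT host), and Tfap4, a transcription factor, had 1 read (KO host) and 332 (WT host). Sirt6, a deacetylase known to repress glycolytic genes, was 2-fold higher with 515 reads (KO host) and 266 (WT host). Hif1a, chosen after its values were seen, had a ratio of 0.960 (0.9302 to 0.990), Myc one of 1.20 (1.13 to 1.29) and Sp1 one of 0.821.

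Hypoxia-inducible genes outside sugar metabolism lay on both sides as well, with a higher sum in the KO-host library. The 20 rows summed to 3734 RPM in the KO-host library and 2685 RPM in the WT-host library, a ratio of 1.39 (1.38 to 1.40). Vegfa supplied 1393 RPM (KO host) and 605 (WT host) of these sums. Of 14 past the expression filter, 1 was higher by 1 or more, Vegfa, and 0 were lower, against 2.31% and 2.64%. Of 19 with 100 reads or more, 3 were 2-fold higher and 1 was lower, against 8.91% and 12.0% of all genes. At 1.5-fold, 6 of the 19 were higher and 3 were lower, against 16.1% and 21.4%. Vegfa had 32582 reads in the KO-host library and 15765 in the WT-host library, a ratio of 2.30 (2.26 to 2.35). Ankrd37 had 105 reads (KO host) and 17 (WT host), P4ha2 had 97 reads (KO host) and 36 (WT host), and Lox had 15 reads (KO host) and 217 (WT host). Ankrd37, P4ha2 and Lox lie in the class of 100 to 300 reads, where 27.5% of genes were 2-fold higher and 32.5% were 2-fold lower. Mif had a ratio of 1.10. Car9, Bnip3 and Ndrg1, chosen after their values were seen, had ratios of 0.539 (0.4997 to 0.581), 1.28 and 1.88 (1.82 to 1.95). Of the members named above as known HIF targets, Slc16a3 and Pfkfb3 had ratios of 8.73 and 4.46 on few reads, and Pdk1 had one of 0.873. They do not stand for all members, since HIF is a known activator of glycolysis genes in general. The summed ratio was 1.71 for glucose entry, 0.990 for upper glycolysis and 0.901 for lower glycolysis. In the same order, 4 of 4, 4 of 7 and 3 of 6 members had ratios above 1. A part of HIF in these values was not tested.

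Markers of other cell types differed between the libraries, and their part in the values of the members was not tested. Fibroblast markers, 9 of 10 with a row, summed to 1361 RPM in the KO-host library and 2724 RPM in the WT-host library; Col1a1, Col3a1, Dcn and Dpt were 2-fold lower and Pdpn was higher. Pericyte and smooth muscle markers, 5 of 10, summed to 93.4 RPM (KO host) and 424 (WT host). Of these, Pdgfrb, Acta2 and Notch3 were 2-fold lower and Cspg4 had 0 reads (KO host) and 190 (WT host). Abcc9 went the other way on few reads, with 55.7 (KO host) and 1 (WT host). Endothelial markers, 4 of 10, summed to 14.5 RPM (KO host) and 18.5 (WT host), with Cdh5 at 146 reads (KO host) and 1 (WT host) and Plvap at 58 reads (KO host) and 348 (WT host). Leukocyte markers, 10 of 12, summed to 23.9 RPM (KO host) and 20.7 (WT host), with Fcer1g 2-fold higher, and Ptprc, which encodes CD45, had 64 reads (KO host) and 46 (WT host). Macrophage markers, 12 of 12, summed to 228 RPM (KO host) and 193 (WT host), with Mpeg1 and Cd68 2-fold higher, Cd14 and Mrc1 at ratios of 0.633 and 0.512, and Lyz2, which had most of the reads, at 1.10. Neutrophil markers, 8 of 10, summed to 87.5 RPM (KO host) and 120 (WT host), with Ltf 2-fold higher, Mmp9, which had most of the reads, at a ratio of 0.708 and Cxcr2 at 0.581, and T and NK markers, 2 of 11, to 2.31 RPM (KO host) and 0.988 (WT host). Erythroid markers had Alas2 alone of 9, at 54 reads (KO host) and 97 (WT host), and adipocyte markers, 3 of 9, summed to 0.942 RPM (KO host) and 2.88 (WT host). Mesenchymal mammary tumour markers, 10 of 10, summed to 9728 RPM (KO host) and 10037 (WT host), with ratios of 0.917 for Vim and 0.858 for Fn1, and of 1.57 for Krt18, 1.44 for Cd44 and 1.42 for Krt8. Tissue dissociation genes, 16 of 17, summed to 13456 RPM (KO host) and 11279 (WT host), with Egr2 2-fold higher and Hspa1b lower.

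Some member values are less certain because reads may have been shared. Recovered reads were whole within 0.1 read in both libraries for 22 rows and fractional for 13. For Slc2a1 the rounding of the deposited value was too coarse to tell. The fractional rows were Slc2a3, Pfkp, the main Aldoa row, Tpi1, Gapdh, Pgk1, Eno1, Pkm, Ldha, Pdha1, Pgd, Rpia and Rpe. Aldoa, Gapdh, Ldha, Pgam1 and Pgk1 each have 2 pseudogenes that carry their name with the suffix -ps in GENCODE release M21. Copies listed under other names were not counted, so reads of other members may be shared as well. The other Aldoa row (ENSMUSG00000114515) had 92 reads (KO host) and 55 (WT host), a ratio of 1.86 (1.32 to 2.65), and lies beside the main row on chromosome 7. Of the members, 10 overlap the span of another listed gene, Pgls and Niban3 on the same strand. Pfkfb2 overlaps the opposite-strand gene Yod1 by 7032 bases, and Yod1 had 2643 reads in the KO-host library and 921 in the WT-host library.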

How the data were processed

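Each library is 1 column of a table that the authors deposited as log2 values, log2(FPKM + 1), as its name says. STAR 2.7.8a, Partek and build mm39 are named in the submitters' processing notes; which step used which, the annotation release and the strand setting are not stated there. In 100% of rows the length equals stop minus start, and FPKM times that length sums to 1000000 in each library, so the deposited values used the genomic span. RPM was computed from this product. Reads were recovered as whole multiples of the step of low values: under 1000 reads, 83.4% of values in the KO host library and 84.9% in the WT host library were whole within 0.1. This step and the intervals were tested on simulated whole Poisson counts. That simulation held no fractional reads and no variation beyond counting, so it does not cover them. The sum over both libraries was at least 10 reads in every row.

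With 1 library per group no test was run. Ratios have 95% Clopper-Pearson intervals, sums Poisson intervals. The size rules were a log2 difference of 1 (mean 1 or more) and 2-fold or 1.5-fold in RPM (100 reads or more). Transcript lengths came from GENCODE M21 by gene ID (36 of 36 rows), promoters from RefSeq. Every member is reported; from other lists, genes past a size rule and the 2 highest, except 1 gene that is not reported here. Members and lists were chosen with earlier results of these data known. Python 3.11.15, numpy 2.4.6, pandas 2.3.3 and scipy 1.17.1 were used.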

Additional observations from a re-analysis of the deposited data

How the results depend on the processing

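Values rest on 1 library per group, so no setting can show how they vary between animals. Hk2, the member past 1 in log2(FPKM + 1), no longer passed with 5 added to FPKM (0 members higher) or with a mean of 3 or more (0). On the RPM scale 3 members were 2-fold higher, also 3 with trimmed mean scaling, and at 1.5-fold 7 were higher and 1 was lower. All 4 ratios of glucose entry were above 1, so no filter or added constant could bring its median difference below 0. That median was 1.02 with 0.1 added, 0.65 with 5 added and 0.39 with no filter. It was 0.45 on the RPM scale, 0.93 centred on the median of all genes and 0.51 with trimmed mean scaling. It was 0.72 with 1000 or more reads, 0.70 with a mean of 3 (1 member) and 1.10 with whole reads only (1 member). The median of lower glycolysis was -0.0237 with no filter, -0.0231 on the RPM scale and -0.0602 centred. It was 0.0297 with trimmed mean scaling and 0.18 with whole reads only (1 member). The median of lactate handling was 0.0027 with no filter (4 members) and 0.0027 with a mean of 3 (2 members). It was 0.0091 on the RPM scale, 0.0619 with trimmed mean scaling and -0.15 with whole reads only (2 members). The median of the pentose phosphate genes was 0.11 with 5 added (4 members). Over 7 members it was -0.0341 with no filter, -0.10 on the RPM scale and -0.0493 with trimmed mean scaling. It was -0.17 with whole reads only (2 members) and 0.60 with 1000 or more reads (3 members). No member of this role had a mean of 3. Settings that filter on level, reads or whole reads counted different members, and the part of this in the changes was not tested. The minimum of 1000 reads was chosen after seeing the data. The trimmed mean of the log2 ratios, KO-host over WT-host library, was -0.05. No paired analysis was possible because each group has 1 library, and for the same reason none could be left out.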

Other observations

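Branches that leave glycolysis for amino acids and sugar nucleotides were described as well. Of 11 hexosamine, serine and nucleotide sugar genes with 100 reads or more, 0 were 2-fold higher and 3 were 2-fold lower in the KO-host library, against 8.91% and 12.0% of all genes. Gnpnat1, an acetyltransferase of hexosamine synthesis, had 248 reads (KO host) and 960 (WT host), a ratio of 0.288 (0.249 to 0.331). Psph, the last enzyme of serine synthesis, had 175 reads (KO host) and 522 (WT host), a ratio of 0.374 (0.313 to 0.444). Phgdh, which draws 3-phosphoglycerate into serine synthesis, had 5474 reads in the KO-host library and 8238 in the WT-host library, a ratio of 0.741 (0.716 to 0.767). Shmt2, the mitochondrial enzyme that splits serine, had a ratio of 0.973.

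Genes of gluconeogenesis, glycogen and glycerol phosphate gave 1 gene 2-fold higher and 0 lower among 15 with 100 reads or more, against 8.91% and 12.0% of all genes. Slc37a4, the glucose 6-phosphate transporter of the endoplasmic reticulum, had 252 reads (KO host) and 56 (WT host), a ratio of 5.02 (3.74 to 6.83). Pck2, the mitochondrial phosphoenolpyruvate carboxykinase, had 1181 reads (KO host) and 2249 (WT host), a ratio of 0.586 (0.545 to 0.628), and Gyg, which primes glycogen, had a ratio of 1.12.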
